A study of Mus musculus with 16 samples.

Results

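Placeholder symbols of the mouse genome, Gm followed by a number or a clone name ending in Rik, marked 112 genes whose level differed between CD8 T-cell subsets of leukemia-bearing mice. They were found among the 22180 genes measured, of which 2783 carry such a symbol (1190 Gm and 1593 Rik). A gene entered the set when its highest minus its lowest subset mean, each over 4 arrays, was 1 or more on the log2 scale, that is a 2-fold range. The subset means therefore chose the members, and every difference between subsets given for them below is a description without a test. The 112 members comprised 49 Gm and 63 Rik genes.

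The arrays came from spleens of female C57BL/6 mice 6 weeks after transfer of murine chronic lymphocytic leukemia (CLL) cells from Eµ-TCL1 mice, which carry the TCL1 oncogene in B cells. Lineage-negative TCRb+ CD8+ cells were sorted into PD-1hi effector cells (CD127low, CD44int-hi, PD-1hi), PD-1int effector cells (CD127low, CD44int-hi, PD-1int), memory cells (CD127hi, CD44hi) and naive cells (CD127hi, CD44low). Each subset had 4 Affymetrix Mouse Gene 2.0 ST arrays, 16 in all. All 4 subsets came from leukemia-bearing recipients, with no leukemia-free mice among these arrays, and the labels do not say whether arrays of a subset came from separate mice, so the spread between them may be technical.

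Gm symbols are given by the mouse nomenclature committee to predicted gene models, and Rik symbols to genes known first from the RIKEN cDNA clone collection. Many stand for long non-coding RNAs (lncRNAs), transcripts that are not translated and are often made near or across a protein-coding gene. Others stand for pseudogenes, inactive copies of another gene, or for proteins that have not been named. CD8 T cells that meet antigen over a long time become effector cells with lasting PD-1, an inhibitory receptor, and other inhibitory receptors such as TIM-3. Naive and memory cells keep CD127, the interleukin-7 receptor.

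RefSeq (GRCm38.p6) held 103 of the 112 members and listed 59 as lncRNAs, 32 as protein-coding, 11 as pseudogenes and 1 as a miscellaneous RNA, so the placeholder symbol does not mark one kind of gene. Its promoter table, which covers 250 bases before and 50 after the start of a gene, had an entry for 77 members. For each subset, 1 promoter is shown, so that each of the 4 directions has a sequence beside its values: it belongs to the member highest in that subset with the largest range among those with an entry in the table, which Gm6637, Gm4956, Gm4951 and Gm6568 do not have. These promoters are those of Gm11454 for PD-1hi (chr2:163122365-163122664, plus strand), Gm16702 for PD-1int (chr17:8389419-8389718, minus strand), 1700025G04Rik for memory (chr1:152090271-152090570, minus strand) and Gm12185 for naive cells (chr11:48927133-48927432, minus strand). Each runs 5′ to 3′ on the strand of its gene, with motif matches in capitals.
Gm11454: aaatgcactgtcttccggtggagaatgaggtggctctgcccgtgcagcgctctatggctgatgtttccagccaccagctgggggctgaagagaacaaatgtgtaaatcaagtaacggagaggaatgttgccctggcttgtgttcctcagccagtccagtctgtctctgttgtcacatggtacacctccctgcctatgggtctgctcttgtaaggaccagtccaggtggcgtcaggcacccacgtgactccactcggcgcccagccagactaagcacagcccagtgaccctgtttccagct
Gm16702: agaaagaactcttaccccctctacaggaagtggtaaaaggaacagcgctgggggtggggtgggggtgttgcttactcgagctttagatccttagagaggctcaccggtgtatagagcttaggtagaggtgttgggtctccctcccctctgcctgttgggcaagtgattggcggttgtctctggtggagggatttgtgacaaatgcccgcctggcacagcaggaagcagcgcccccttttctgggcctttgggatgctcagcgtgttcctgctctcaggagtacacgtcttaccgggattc
1700025G04Rik: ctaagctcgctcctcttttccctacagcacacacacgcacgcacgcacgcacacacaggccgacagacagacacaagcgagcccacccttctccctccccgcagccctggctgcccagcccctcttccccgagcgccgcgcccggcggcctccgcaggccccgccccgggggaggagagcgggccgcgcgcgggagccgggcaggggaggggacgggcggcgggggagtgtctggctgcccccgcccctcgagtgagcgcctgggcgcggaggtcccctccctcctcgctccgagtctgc
Gm12185: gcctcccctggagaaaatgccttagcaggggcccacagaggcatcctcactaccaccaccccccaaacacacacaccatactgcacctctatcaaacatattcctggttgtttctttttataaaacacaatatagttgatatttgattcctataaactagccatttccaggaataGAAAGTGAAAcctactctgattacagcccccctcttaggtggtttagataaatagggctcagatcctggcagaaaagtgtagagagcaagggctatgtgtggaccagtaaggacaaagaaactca

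Motifs searched on both strands were AP-1 (TGANTCA), TCF1/LEF1 (CTTTGAT), NR4A (AAAGGTCA), an interferon-response element (ISRE-like, TTTC and TTTC with any 2 bases between) and the cell-cycle homology region (CHR, TTTGAA), where N is any base; no motif contains another. Of the 4 promoters printed above, the one of Gm12185 held a match, to the ISRE-like motif on the reverse strand. AP-1, the Fos and Jun dimer active after T-cell receptor signals, was matched in 6 of 77 member promoters (7.79%), against 8.97% of the 27025 genes in the promoter table. Of those 6, 5 lay among the 25 promoters of members highest in PD-1hi (20.0%), 0 among 19 of members highest in PD-1int, 0 among 15 highest in memory and 1 among 18 highest in naive. CHR was matched in 15 of the 77 (19.5%, against 20.2% of all genes): 6 of 25 highest in PD-1hi (24.0%), 4 of 19 in PD-1int, 2 of 15 in memory and 3 of 18 in naive. TCF1/LEF1 was matched in 4 (5.19% against 4.29%): 1 of 25 in PD-1hi, 2 of 19 in PD-1int (10.5%), 1 of 15 in memory and 0 of 18 in naive. The ISRE-like motif was matched in 1 (1.30% against 3.99%), among the members highest in naive, and NR4A in 0 (against 1.70%). The counts by subset are small and were not tested. AP-1 over all members lay below its share of all genes and near its share of the 32851 promoters in the table (7.81%). CHR lay below its share of all genes and above its share of those promoters (17.9%). A match is a description of the sequence and not a binding site.

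The 5 AP-1 matches of members highest in PD-1hi are printed with up to 18 bases on each side and the match in capitals. They lie in the promoters of Gm17745 (chr10:93336215-93336257, plus strand), D430020J02Rik (chr12:116405242-116405284, minus strand), Gm2808 (chr17:6536153-6536195, minus strand), Gm6653 (chr10:88136063-88136103, minus strand) and Gm19510 (chr15:59795095-59795137, minus strand). The matches start 105 bases before the gene start in D430020J02Rik, 163 in Gm2808, 234 in Gm6653 and 160 in Gm19510, while that of Gm17745 lies after its start. Gm2808, Gm6653 and Gm19510 were named for this match after their values were seen.
Gm17745: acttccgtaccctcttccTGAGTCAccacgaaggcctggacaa
D430020J02Rik: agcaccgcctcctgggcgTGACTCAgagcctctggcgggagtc
Gm2808: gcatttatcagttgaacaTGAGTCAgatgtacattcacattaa
Gm6653: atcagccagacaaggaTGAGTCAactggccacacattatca
Gm19510: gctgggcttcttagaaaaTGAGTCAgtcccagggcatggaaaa

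Deposited values ran from 2.347 to 14.125 on the log2 scale, and the array medians lay between 6.394 and 6.489. The genes used for the sort ran in the order of the gates. Pdcd1, which encodes PD-1, averaged 11.4 in PD-1hi, 10.1 in PD-1int, 7.10 in memory and 6.80 in naive cells. Il7r, which encodes CD127, averaged 4.91, 7.49, 12.57 and 12.97 in the same order, and Cd44 7.93, 8.69, 8.99 and 6.07. Il7r thus also differed between the effector subsets, although both were sorted as CD127low. The 6 genes of the CD8 T-cell list averaged 12.2 to 12.4 on each array. Of the 9 measured B-cell and CLL genes the array mean stayed between 5.70 and 6.24 throughout, but within the list Cd22 averaged 7.13 in PD-1hi, 8.03 in PD-1int, 9.50 in memory and 6.28 in naive cells, and Cd79b varied by 0.97. The other 7 genes varied by less than 0.3. No detection call or background level was given, so a low value can mean absent RNA, and levels are not comparable between probe sets. In sorted bulk samples, fewer cells that express a gene and less RNA per cell cannot be told apart.

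The highest and lowest means of a member most often paired an effector subset with memory or naive cells. The 1600 other genes that passed the threshold most often did the same. The highest mean lay in PD-1hi cells for 41 members, in PD-1int for 24, in memory for 19 and in naive for 28. The lowest mean lay in PD-1hi cells for 34, in PD-1int for 9, in memory for 13 and in naive cells for 56. The commonest course, in 32 members, was highest in PD-1hi and lowest in naive cells. The courses highest in PD-1int and lowest in naive, and highest in naive and lowest in PD-1hi, held 20 members each, and 14 were highest in memory and lowest in PD-1hi.

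**Figure D1:**
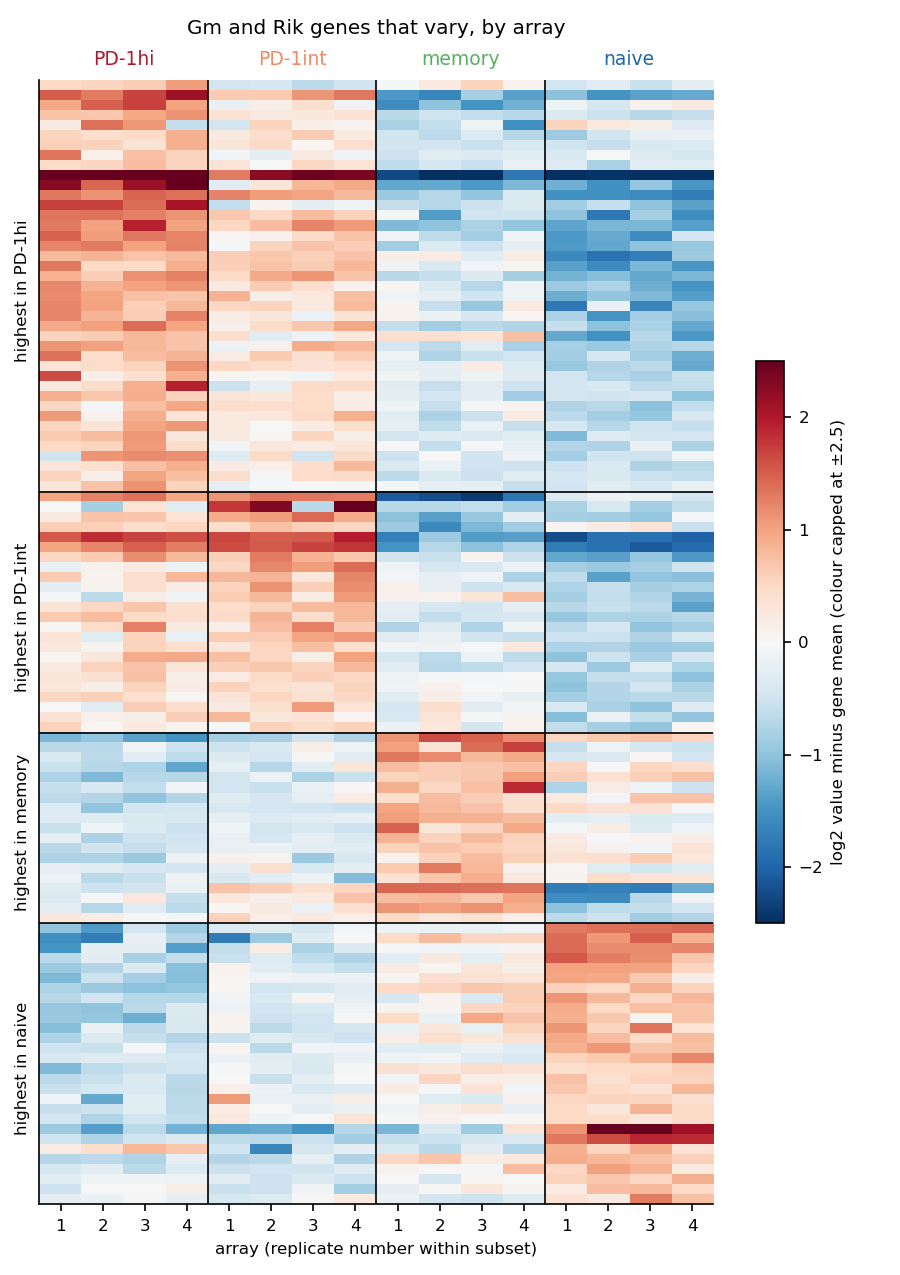
Log2 value of each of the 112 members (rows) on each of the 16 arrays (columns, PD-1hi, PD-1int, memory and naive from left to right) after subtraction of the mean of the gene over all arrays. Rows are grouped by the subset of highest mean, and the blocks hold 41, 24, 19 and 28 members.

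Against the 1600 other genes that passed the same threshold, the shares by subset of highest mean were 36.6% of members and 42.9% of other genes for PD-1hi, 21.4% and 10.3% for PD-1int, 17.0% and 21.4% for memory, and 25.0% and 25.4% for naive. These shares were not tested against each other, and a highest subset can rest on a near tie. PD-1hi minus PD-1int was -0.002 in Gm16702 and -0.07 in F730043M19Rik, both counted as highest in PD-1int and not called in the fit below. In others highest in PD-1int, such as Gm15987 at -1.04, the difference was called. In 42 members (37.5%, against 38.1% of the other varying genes) every array of both effector subsets lay above every memory and naive array. The opposite separation was seen in 15 members (13.4%, against 25.8%). The 4 means stepped up without exception in the order naive, memory, PD-1int, PD-1hi in 31 members (27.7%, against 34.9%). They stepped down in that order in 17 (15.2%, against 17.2%). In 72 members (64.3%, against 66.6% of the other varying genes) the PD-1hi and PD-1int means lay within 0.5 of each other.

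A limma fit over all 22180 genes gives the size of these differences beside the background. At an adjusted p under 0.05, 102 of the 112 members were called between PD-1hi and naive cells, 66 higher and 36 lower in PD-1hi, where 27.1% of all genes were called, 13.4% higher and 13.7% lower. The call was made for 98 members between PD-1int and naive (background 22.7%), 59 between memory and naive (11.7%), 93 between PD-1hi and memory (21.9%) and 78 between PD-1int and memory (16.2%). Between PD-1hi and PD-1int, 26 members were called, 14 higher and 12 lower in PD-1hi, against a background of 3.31% (1.37% higher and 1.94% lower). These counts depend on single arrays: 9 were called higher without PD-1hi replicate 4, and 6 lower without PD-1int replicate 4. Calls over all genes fell as well, from 734 to 474 without PD-1hi replicate 4 and to 537 without PD-1int replicate 4. As the same contrasts chose the members, nothing is read from the counts of members called. The median log2 difference of the members was 0.98 for PD-1hi minus naive, 0.78 for PD-1int minus naive, 0.23 for memory minus naive and -0.06 for PD-1hi minus PD-1int, where the medians over all genes were -0.01, -0.03, -0.02 and 0.01.

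**Figure D2:**
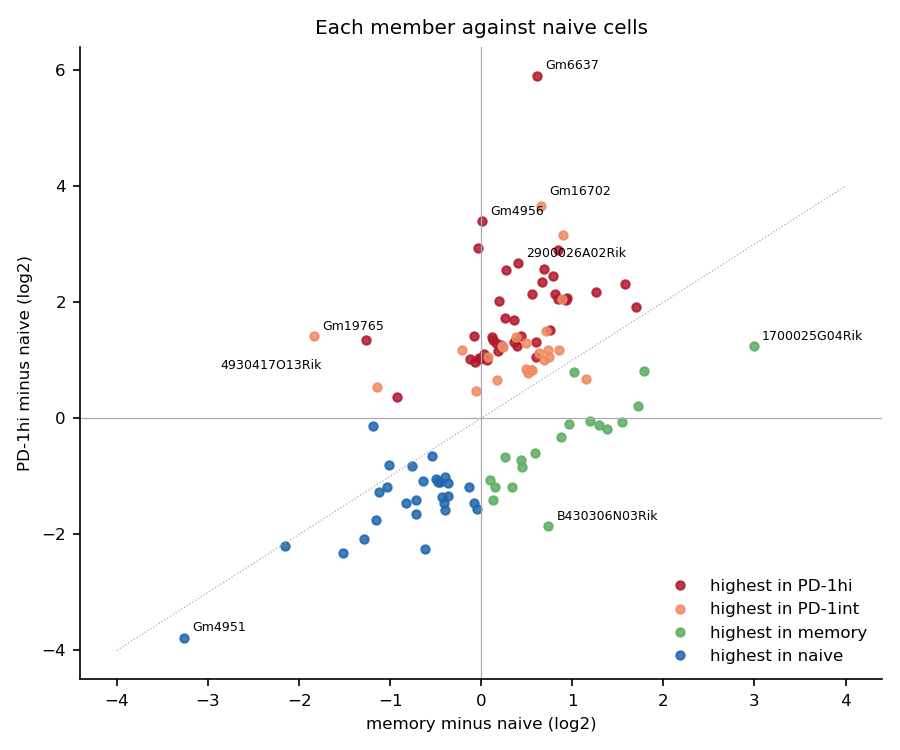
Log2 difference of each member between PD-1hi and naive cells (vertical axis) and between memory and naive cells (horizontal axis), means of 4 arrays, coloured by the subset of highest mean. The dotted line marks equal differences; Gm6637 lies at 5.90 on the vertical axis, and 1700025G04Rik lies farthest to the right.

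Among the members highest in PD-1hi cells, Gm6637 had the largest range. RefSeq lists it as a transcribed pseudogene, and it lies beside Klrg1, the gene of an inhibitory lectin receptor of effector cells. Gm6637 read 11.16, 10.52, 11.17 and 11.18 on the PD-1hi arrays, 9.28, 10.23, 10.40 and 10.33 on PD-1int, 5.73, 5.47, 5.48 and 6.19 on memory, and 4.60, 5.51, 5.07 and 5.25 on naive arrays. The effector arrays stood far above the others without overlap, and PD-1hi lay above PD-1int on each array. The means were 11.01 ± 0.33 in PD-1hi and 5.11 ± 0.38 in naive cells (SD, n = 4 each), a 59.8-fold difference of the deposited values. The naive mean lies within the levels of the dimmest of 4 equal groups of all genes (2.69 to 5.51), and with no background level given the fold is not an exact ratio of RNA. Klrg1 itself averaged 9.73 in PD-1hi, 10.63 in PD-1int, 6.94 in memory and 6.02 in naive cells, so the member was highest in PD-1hi and its neighbour in PD-1int. The genes with the most similar course over the 16 arrays were Car5b, a mitochondrial carbonic anhydrase, Havcr2, which encodes TIM-3, and the chemokine gene Ccl3, with root mean square differences of 0.51, 0.53 and 0.55 log2 after centring.

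Gm4956, also a pseudogene, was the next of this group. It read 9.52, 8.69, 9.39 and 9.80 in PD-1hi, 6.97, 7.54, 8.06 and 8.19 in PD-1int, 5.94, 5.96, 5.80 and 6.12 in memory, and 6.03, 5.72, 6.28 and 5.77 in naive cells. The 4 PD-1hi arrays were the highest, PD-1int lay between, and memory and naive overlapped. Its nearest genes by course were Tnfrsf9, which encodes the costimulatory receptor 4-1BB, Cemip2 and Chn2. Probes against a pseudogene can also bind RNA of the gene it was copied from; the probe sequences were not used here and this was not tested. Of the 11 pseudogene members, 7 were highest in PD-1hi, 2 in memory and 2 in naive cells.

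The lncRNA Gm11454 lies beside Tox2, which encodes an HMG-box transcription factor of the TOX family. It read 8.68, 8.46, 8.86 and 9.29 in PD-1hi, 7.82, 7.82, 8.27 and 8.48 in PD-1int, 5.74, 5.53, 6.33 and 5.81 in memory, and 6.14, 5.67, 5.82 and 5.90 in naive cells. Both effector subsets stood above memory and naive, which overlapped, and the highest PD-1int array just exceeded the lowest PD-1hi array. Tox2 had the same order over the effector subsets with a smaller range, at 8.33 in PD-1hi, 7.87 in PD-1int, 7.24 in memory and 7.26 in naive cells. The lncRNA 4833407H14Rik, between Smndc1 and the ERK phosphatase gene Dusp5, read 9.24, 9.05, 9.37 and 9.30 in PD-1hi, 9.17, 8.97, 8.91 and 8.74 in PD-1int, 7.00, 7.21, 6.94 and 7.56 in memory, and 6.41, 6.41, 6.36 and 6.17 in naive cells. The effector arrays formed one high group, memory came next, and naive arrays were lowest. Mirt1, which overlaps 4833407H14Rik, had its highest mean in PD-1int, at 9.37 in PD-1hi, 9.92 in PD-1int, 9.25 in memory and 8.22 in naive cells. Dusp5 averaged 10.51 in PD-1hi, 10.21 in PD-1int, 9.44 in memory and 7.90 in naive cells.

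**Figure D3:**
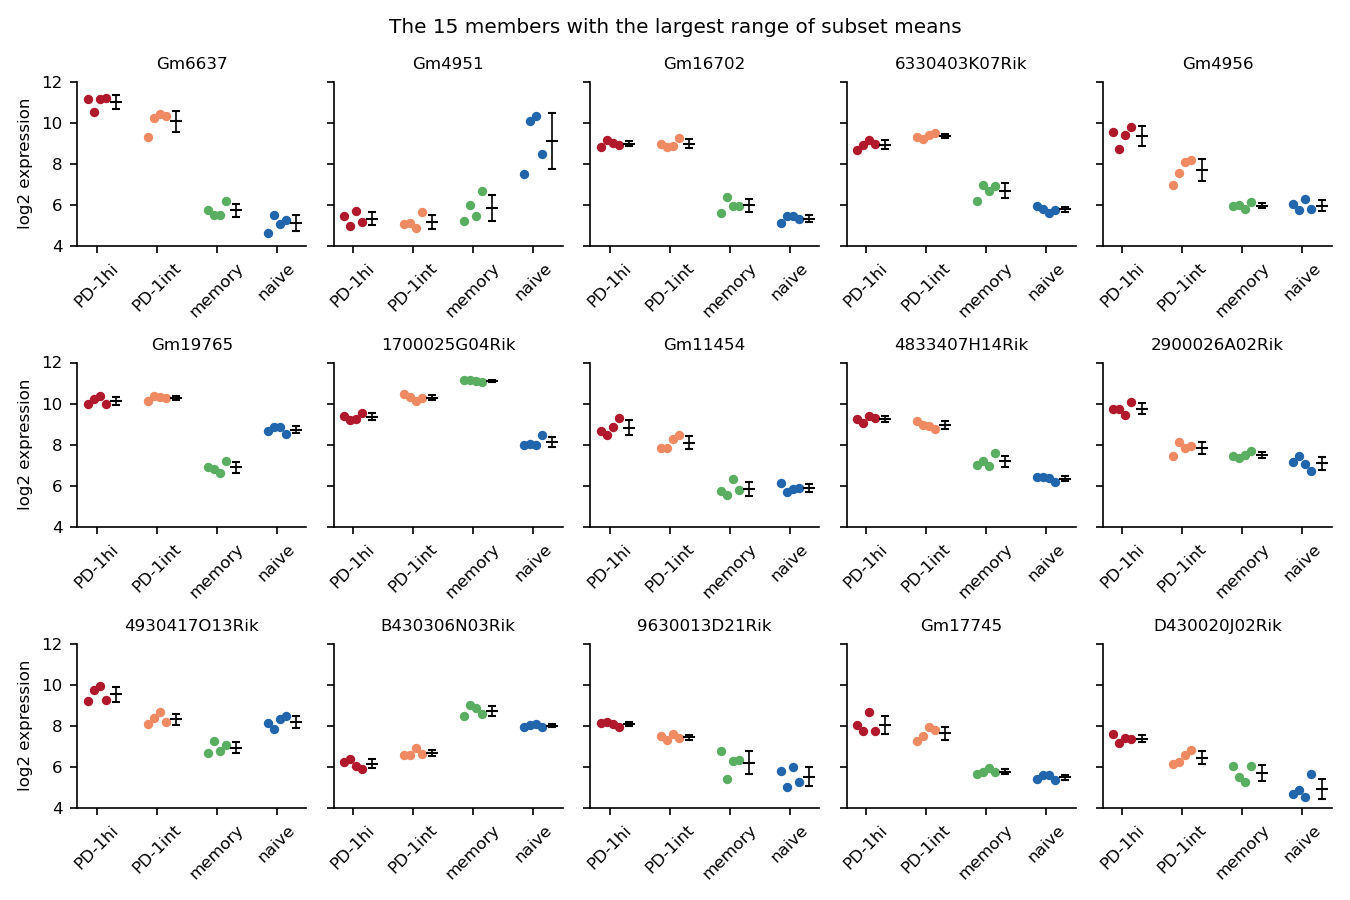
Log2 values of the members with the largest range on each of the 16 arrays, with the subsets from left to right as PD-1hi, PD-1int, memory and naive. Points are arrays, and the black mark beside them gives the subset mean ± SD (n = 4); Gm6637 spans 5.90 between its PD-1hi and naive means.

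The protein-coding 2900026A02Rik set PD-1hi cells apart from all other subsets. It read 9.75, 9.74, 9.43 and 10.09 in PD-1hi, 7.43, 8.11, 7.82 and 7.92 in PD-1int, 7.45, 7.33, 7.50 and 7.69 in memory, and 7.16, 7.46, 7.03 and 6.69 in naive cells. The PD-1hi arrays stood above the other 12, and the remaining subsets overlapped; PD-1hi exceeded PD-1int by 1.94, the largest such difference among the members. Its nearest genes by course were Arnt2, a transcription factor gene, the growth factor gene Csf1, and Ptpn5. In all, 14 members had their 4 PD-1hi arrays above the other 12 (12.5%, against 19.8% of the other varying genes). The lncRNA 4930417O13Rik, which lies between Cd27 and Ltbr, read 9.21, 9.74, 9.94 and 9.24 in PD-1hi, 8.06, 8.39, 8.64 and 8.15 in PD-1int, 6.67, 7.24, 6.74 and 7.03 in memory, and 8.12, 7.81, 8.34 and 8.47 in naive cells. PD-1hi was highest, PD-1int and naive overlapped, and memory was lowest without overlap. Its course was nearest to those of Glcci1, Izumo1r, which encodes folate receptor 4, and the surface glycoprotein gene Cd200.

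Some named members highest in PD-1hi lay beside, or had among their 3 nearest genes, a gene of the cell cycle or of DNA repair. This grouping was made after the values were seen and was not tested. The lncRNA 9630013D21Rik lies beside Cdkn2c, the gene of a cyclin-dependent kinase inhibitor. It read 8.14, 8.17, 8.07 and 7.92 in PD-1hi, 7.47, 7.29, 7.57 and 7.37 in PD-1int, 6.78, 5.41, 6.29 and 6.30 in memory, and 5.79, 5.01, 5.98 and 5.26 in naive cells. PD-1hi and PD-1int formed separate levels above memory and naive, and memory overlapped naive. Cdkn2c averaged 8.96 in PD-1hi, 8.44 in PD-1int, 7.66 in memory and 6.64 in naive cells, and the spindle gene Spag5 and the cell-cycle repressor gene E2f7 were nearest in course. D430020J02Rik, a lncRNA beside the condensin gene Ncapg2, read 7.59, 7.15, 7.41 and 7.32 in PD-1hi, 6.15, 6.20, 6.56 and 6.82 in PD-1int, 6.04, 5.47, 5.25 and 6.02 in memory, and 4.66, 4.84, 4.52 and 5.63 in naive cells. PD-1hi arrays were the highest here too, and the neighbouring subsets in the order PD-1int, memory and naive did not overlap except for memory with naive.

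The nearest genes of D430020J02Rik were the centriole kinase gene Plk4, the DNA repair gene Neil3 and the cytokinesis motor gene Kif20a, at root mean square differences of 0.21, 0.27 and 0.27. The protein-coding 2610318N02Rik, which averaged 8.88 in PD-1hi, 8.78 in PD-1int, 7.96 in memory and 6.70 in naive cells, was near Arsb, Cdkn2c and Nsd2. The protein-coding 1500009L16Rik, at 9.46, 9.07, 8.24 and 7.40 in the same order of subsets, was near the checkpoint kinase gene Chek1, Naip5 and the DNA ligase gene Lig1. Arsb encodes a lysosomal sulfatase and Naip5 an inflammasome sensor, so the nearest genes were not of one kind. The upward step from naive over memory and PD-1int to PD-1hi was shared by 31 members and 34.9% of the other varying genes. The 14 measured mitosis genes had array means of 9.97 to 10.4 in PD-1hi, 9.08 to 9.61 in PD-1int, 7.65 to 8.92 in memory and 6.25 to 6.58 in naive cells. Their part in the levels of these members was not tested.

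Other members of this group followed different genes. The lncRNA Gm17745 averaged 8.04 ± 0.44 in PD-1hi, 7.62 ± 0.32 in PD-1int, 5.76 ± 0.13 in memory and 5.48 ± 0.13 in naive cells (SD, n = 4 each), and its nearest genes were Penk, which encodes proenkephalin, the glutaredoxin gene Glrx, and Trerf1. The protein-coding 1700020L24Rik averaged 8.42 in PD-1hi, 8.26 in PD-1int, 6.83 in memory and 6.28 in naive cells. The lncRNA 2310001H17Rik averaged 9.31, 8.75, 7.81 and 7.90 in that order, while Cd69, an early activation antigen gene next to it, had its highest mean in memory cells, at 10.21 in PD-1hi, 10.65 in PD-1int, 11.37 in memory and 11.06 in naive cells. The member and its neighbour thus ran in opposite order.

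Of the 24 members highest in PD-1int cells, 20 were lowest in naive. The lncRNA Gm16702 read 8.83, 9.14, 8.98 and 8.92 in PD-1hi, 8.97, 8.82, 8.84 and 9.27 in PD-1int, 5.59, 6.39, 5.91 and 5.95 in memory, and 5.08, 5.43, 5.44 and 5.28 in naive cells. The effector subsets could not be told from each other on these arrays, both means being 8.97, and lay far above memory and naive. Its nearest genes were the inflammatory caspase gene Casp1, Entpd1, which encodes the ectonucleotidase CD39, and Hip1. The protein-coding 6330403K07Rik read 8.67, 8.91, 9.16 and 8.96 in PD-1hi, 9.31, 9.22, 9.37 and 9.47 in PD-1int, 6.18, 6.96, 6.66 and 6.90 in memory, and 5.92, 5.81, 5.60 and 5.76 in naive cells. Here every PD-1hi array lay below every PD-1int array, with a PD-1hi minus PD-1int difference of -0.42 that was not called. The order PD-1int, PD-1hi, memory, naive held without overlap.

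The nearest genes of 6330403K07Rik were Casp1, the fractalkine receptor gene Cx3cr1 and the lysosomal gene Cd68. Cd68 belongs to the list of 7 myeloid genes, whose array means were 6.90 to 7.19 in PD-1hi, 6.96 to 7.12 in PD-1int, 6.24 to 6.34 in memory and 6.14 to 6.38 in naive cells. Within that list Cd68 and Itgam varied by 3.05 and 1.87. Lyz2, Fcgr3 and Csf1r varied by 0.53, 0.34 and 0.28, with Lyz2 and Csf1r highest in PD-1hi and Fcgr3 in PD-1int. Adgre1 and Cd14 varied by 0.13 and 0.17, with Cd14 between 4.98 and 5.15 in the 4 subset means. Any part of other cells in these members was not tested.

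Gm19765, which RefSeq does not list, read 9.99, 10.24, 10.36 and 9.97 in PD-1hi, 10.10, 10.35, 10.33 and 10.28 in PD-1int, 6.93, 6.79, 6.61 and 7.21 in memory, and 8.67, 8.86, 8.84 and 8.52 in naive cells. The effector subsets overlapped at the top, naive lay between, and memory was lowest on every array. Its course was nearest to those of the ceramide synthase gene Cers6, Rnf216 and the transcription factor gene Irf4. Memory below the other 12 arrays was seen in 3 members (2.68%, against 2.81% of the other varying genes): Gm19765, 4930417O13Rik and Gm8369. The last was named after its values were seen.

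PD-1int cells alone stood above the other 12 arrays in 5 members (4.46%, against 1.88% of the other varying genes): 6330403K07Rik, Gm11110, Gm15987, 1110028F11Rik and Gm7609, of which the last 3 were named after their values were seen. The lncRNA Gm11110 overlaps Tnfsf9, the gene of the 4-1BB ligand. It read 7.77, 8.25, 8.25 and 7.88 in PD-1hi, 8.47, 8.59, 8.96 and 8.47 in PD-1int, 6.52, 6.19, 6.60 and 7.30 in memory, and 6.72, 6.67, 6.57 and 7.49 in naive cells. PD-1int was highest, PD-1hi next, and memory and naive overlapped. The PD-1hi minus PD-1int difference of -0.59 was not called. Tnfsf9 averaged 7.70 in PD-1hi, 7.74 in PD-1int, 6.81 in memory and 6.57 in naive cells. The lncRNA Gm15987 averaged 7.21 ± 0.19 in PD-1hi, 8.24 ± 0.38 in PD-1int, 6.94 ± 0.17 in memory and 6.42 ± 0.19 in naive cells, and 1110028F11Rik 6.74 ± 0.26, 7.49 ± 0.32, 6.39 ± 0.28 and 5.89 ± 0.11 in that order (SD, n = 4 each). No member had all PD-1int arrays below the other 12, against 0.25% of the other varying genes.

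One member of this group, the protein-coding Gm11568, rests on scattered arrays. It read 3.88, 3.04, 4.22 and 3.56 in PD-1hi, 5.64, 6.19, 3.21 and 6.77 in PD-1int, 3.18, 3.18, 3.25 and 3.00 in memory, and 3.08, 3.49, 3.02 and 3.27 in naive cells. Of the PD-1int arrays 3 were high and replicate 3 lay among the arrays of the other subsets. With Gm14057, Gm16998 and Gm19897 it was one of the 4 members whose highest and lowest subsets overlapped on single arrays; in the other 108 they did not. Among all 22180 genes 38.5% showed no overlap between their highest and lowest subset. Gm16998 was named after its values were seen.

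Memory cells had the highest mean in 19 members. The protein-coding 1700025G04Rik was highest in memory and lowest in naive cells, with 9.41, 9.21, 9.27 and 9.56 in PD-1hi, 10.44, 10.34, 10.13 and 10.25 in PD-1int, 11.15, 11.14, 11.09 and 11.06 in memory, and 7.97, 8.04, 7.97 and 8.49 in naive cells. All 4 subsets were separate, in the order memory, PD-1int, PD-1hi, naive, and memory exceeded naive by 2.99, or 7.96-fold. Its nearest genes were Cd44, which served to sort the cells, Cd22, which belongs to the B-cell list above, and the T-bet gene Tbx21. The protein-coding B430306N03Rik, beside Treml2, a receptor gene, read 6.25, 6.39, 6.04 and 5.89 in PD-1hi, 6.56, 6.58, 6.90 and 6.64 in PD-1int, 8.48, 9.01, 8.85 and 8.58 in memory, and 7.93, 8.04, 8.10 and 7.91 in naive cells. Memory and naive stood above both effector subsets, each step without overlap. Treml2 had a wider range, 5.45 in PD-1hi, 6.99 in PD-1int, 10.18 in memory and 10.20 in naive cells.

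A course with memory above all other arrays was found in 11 members (9.82%, against 9.69% of the other varying genes), the 2 just described among them. The protein-coding 5430427O19Rik averaged 5.61 in PD-1hi, 6.22 in PD-1int, 7.13 in memory and 5.40 in naive cells, and the protein-coding 5730507C01Rik 5.07, 5.34, 6.68 and 5.14 in that order. Both were nearest to Map3k8, which encodes a kinase of the MAP kinase cascade. The lncRNA 4921525O09Rik averaged 6.48 in PD-1hi, 6.72 in PD-1int, 8.04 in memory and 6.67 in naive cells, and was nearest to Dlg5, Cldnd1 and Luzp1. In these 3 members the effector and naive means lay within 1 of each other while memory stood apart. The lncRNA 1810006J02Rik averaged 7.51 in PD-1hi, 8.01 in PD-1int, 8.49 in memory and 6.69 in naive cells, with a naive SD of 0.73. Its PD-1hi minus naive difference of 0.81 lost its call without PD-1hi replicate 2 or 3 and without naive replicate 1 or 2, at values of 0.61 to 0.77.

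Naive cells had the highest mean in 28 members, of which 20 were lowest in PD-1hi. The widest was the protein-coding Gm4951, which RefSeq also lists as Ifgga2 and which belongs to the immunity-related GTPases, interferon-induced proteins of cell-autonomous defence. It read 5.43, 4.97, 5.68 and 5.17 in PD-1hi, 5.04, 5.08, 4.86 and 5.63 in PD-1int, 5.21, 5.99, 5.45 and 6.67 in memory, and 7.47, 10.09, 10.34 and 8.46 in naive cells. The naive arrays were all above the others but spread widely among themselves, with a mean of 9.09 ± 1.36 (SD, n = 4). Iigp1, another gene of that family and the nearest in course, read 9.98, 11.16, 10.89 and 10.53 on the same naive arrays, with replicate 1 lowest in both genes.

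The protein-coding Gm12185, listed also as Irgb2b1 of the same family, read 6.25, 5.83, 6.77 and 6.36 in PD-1hi, 6.90, 6.94, 6.81 and 7.17 in PD-1int, 7.11, 7.09, 7.07 and 7.16 in memory, and 8.54, 8.63, 8.62 and 8.69 in naive cells. Naive stood above the rest within a narrow band, PD-1hi was lowest, and PD-1int and memory overlapped. Its nearest gene was Irgm2 of the same family, at a root mean square difference of 0.19, and its promoter is the one printed above with an ISRE-like match. The 10 measured interferon-stimulated genes had array means of 7.61 to 7.93 in PD-1hi, 8.20 to 8.32 in PD-1int, 8.21 to 8.37 in memory and 8.73 to 9.04 in naive cells. The list itself holds 3 immunity-related GTPase genes, Iigp1, Igtp and Irgm1, which had its widest ranges (4.00, 2.86 and 1.81) and were highest in naive. The other 7 did not share one course: Ifit1, Oasl1, Irf7 and Ifit3 were highest in naive, the last with a range of 0.33, and Isg15, Rsad2 and Mx1 were highest in PD-1int. Mx1 was lowest in naive, at 6.50 in PD-1hi, 7.27 in PD-1int, 6.80 in memory and 6.17 in naive cells.

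The pseudogene Gm6568 was high in naive cells alone. It read 5.38, 5.13, 5.38 and 5.50 in PD-1hi, 5.23, 5.22, 5.34 and 5.01 in PD-1int, 5.29, 5.34, 5.43 and 5.50 in memory, and 7.18, 7.50, 7.77 and 7.73 in naive cells. The other 3 subsets overlapped, and naive exceeded the lowest of them by 2.35, or 5.09-fold. Its nearest genes were Cnn3, Gpr83 and Als2cl. Naive above all other arrays was seen in 13 members (11.6%, against 15.6% of the other varying genes), and naive below all other arrays in 26 (23.2%, against 28.9%).

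The lncRNA Gm12474 averaged 7.66 ± 0.70 in PD-1hi, 8.11 ± 0.43 in PD-1int, 8.45 ± 0.08 in memory and 9.74 ± 0.10 in naive cells, and the lncRNA A630023P12Rik 6.41 ± 0.71, 6.72 ± 0.78, 8.05 ± 0.14 and 8.67 ± 0.29 in that order (SD, n = 4 each). In both the effector arrays were spread more widely than memory or naive. Gm12474 was nearest to Dpp4, which encodes the peptidase CD26, and A630023P12Rik to Acpp, a phosphatase gene. The lncRNA I730030J21Rik departed from the general order: it averaged 8.46 in PD-1hi, 7.22 in PD-1int, 7.41 in memory and 8.59 in naive cells. PD-1hi and naive overlapped at the top, and PD-1int and memory at the bottom.

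The position of the members in the genome, which the rule did not use, was described through their neighbours: genes overlapping a member and the nearest measured gene on each side in RefSeq. For the 103 members with a position, 46 of 246 neighbours varied by 1 or more (18.7%), against 442 of 5755 neighbours of the other Gm and Rik genes (7.68%) and 7.72% of all 22180 genes. At least 1 varying neighbour was found for 40 members (38.8%), against 408 of 2513 other Gm and Rik genes (16.2%). The 2 sets were not matched for level: the median was 7.38 for members and 5.78 for all Gm and Rik genes. The share of genes that vary rose with level among Gm and Rik genes, as given below. The part of level in the neighbour shares was not tested. Of 41 overlapping neighbours 14 varied (34.2%), and 12 of these had their highest mean in the same subset as the member. Of 205 neighbours without overlap 32 varied (15.6%), 19 of them with the same highest subset. Neither the split by overlap nor the match of highest subset was counted for other Gm and Rik genes. Both therefore lack a background, and nothing is read from them. The neighbouring members Gm8817 and Gm15232, named after their values were seen, count once from each side. The neighbours were found without regard to strand, and the strands printed above from the promoter table were not used for them. Overlapping genes may share transcripts or probe targets, which was not tested.

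**Figure D4:**
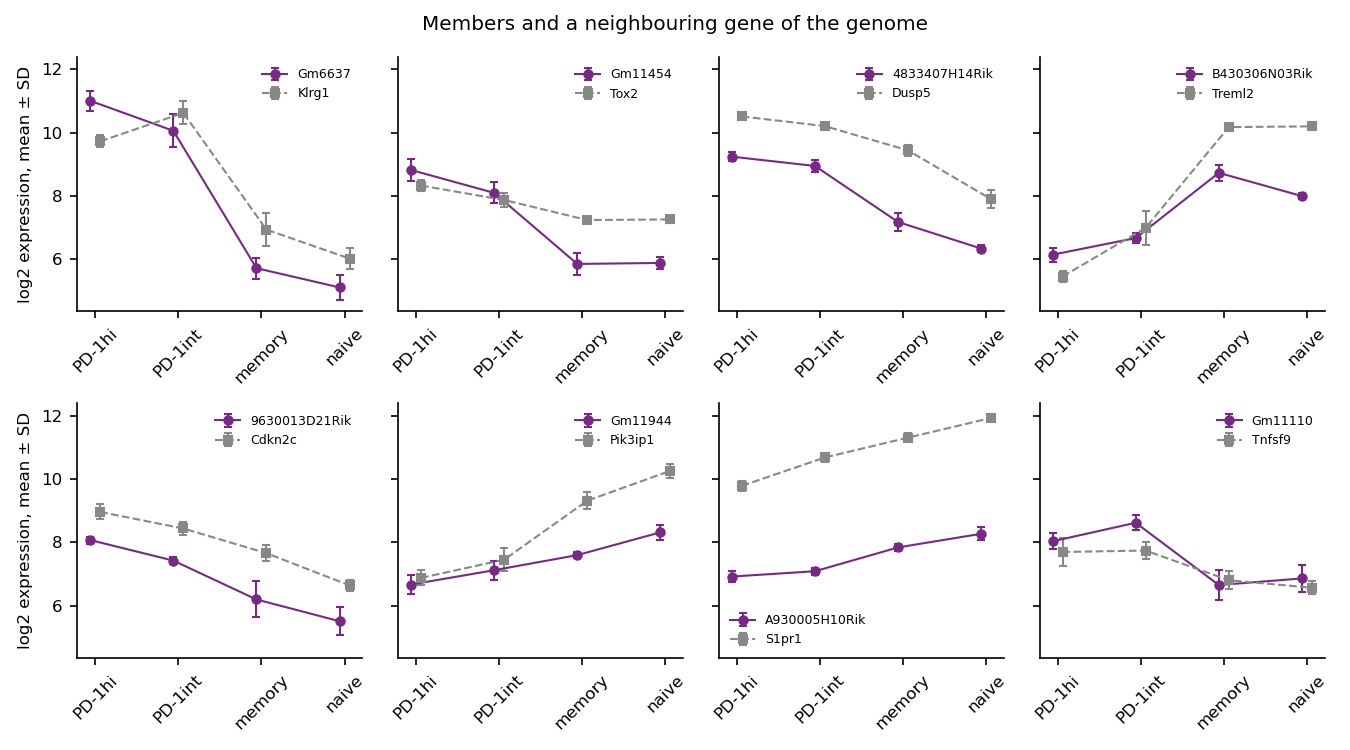
Subset means (± SD, n = 4 arrays) of selected members and of a varying neighbour on the log2 scale, with subsets as PD-1hi, PD-1int, memory and naive. The pairs are not all varying neighbours, and pairs of opposite course, such as 1500009L16Rik and Washc4, are not shown. Levels of different probe sets are not comparable, so the shape of each course is what the panels show; Klrg1 beside Gm6637 is highest in PD-1int while Gm6637 is highest in PD-1hi.

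Further pairs are named here after their values were seen. The lncRNA Gm11944, which overlaps Pik3ip1, the gene of an inhibitor of PI3 kinase, averaged 6.67 in PD-1hi, 7.12 in PD-1int, 7.60 in memory and 8.32 in naive cells, and Pik3ip1 6.88, 7.45, 9.32 and 10.27 in that order. The lncRNA A930005H10Rik averaged 6.92 in PD-1hi, 7.09 in PD-1int, 7.84 in memory and 8.27 in naive cells. It overlaps Dph5, at 8.57, 8.82, 10.29 and 10.56 in that order. It lies beside S1pr1, the receptor gene for egress from lymphoid organs, at 9.79, 10.69, 11.31 and 11.94. In each of these pairs, member and neighbour stepped in the same direction. Gm9199, a pseudogene that overlaps the leukotriene receptor gene Cysltr2, averaged 8.74 in PD-1hi, 8.56 in PD-1int, 7.98 in memory and 7.23 in naive cells, and Cysltr2 9.93, 9.77, 8.90 and 7.46.

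Also named after their values were seen, the protein-coding 5830411N06Rik and its neighbour Cd163l1 were both high in memory alone, at 6.22 in PD-1hi, 6.31 in PD-1int, 7.47 in memory and 6.28 in naive cells for the member and 6.55, 6.63, 9.58 and 6.61 for Cd163l1. The lncRNA 4931431B13Rik averaged 6.44 ± 0.54 in PD-1hi, 6.65 ± 0.45 in PD-1int, 5.46 ± 0.31 in memory and 5.22 ± 0.25 in naive cells (SD, n = 4 each). It overlaps Itgad and lies beside Itgax, both integrin alpha chain genes, at 9.44, 10.02, 6.41 and 6.15 for Itgad and 8.49, 10.12, 9.03 and 6.10 for Itgax in the same order. Opposite courses also occurred: 1500009L16Rik was highest in PD-1hi, whereas its neighbour Washc4 averaged 8.65 in PD-1hi, 9.06 in PD-1int, 9.39 in memory and 10.12 in naive cells.

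A second readout within the same arrays came from 5 members with further probe sets. None of the further sets reached a range of 1. In F730043M19Rik, a lncRNA, the range was 2.13 for the set that stood for the gene and 0.19 for the further set, which lay between 3.80 and 3.99 in the 4 subset means. The ranges were 2.08 and 0.59 for B930095G15Rik, 1.32 and 0.35 for 2810408B13Rik, 1.18 and 0.51 for 2810025M15Rik, and 1.12 and 0.31 for Gm10584. The highest and lowest subset of the further set matched those of the first in 1 of the 5, 2810025M15Rik (PD-1hi and PD-1int). In 2810408B13Rik the first set was highest in PD-1hi and lowest in naive. Its further set was highest in naive and lowest in PD-1int, at 6.24 in PD-1hi, 6.18 in PD-1int, 6.23 in memory and 6.54 in naive cells. The further set of Gm10584 was highest in naive like the first but lowest in memory, that of B930095G15Rik was highest in PD-1int and lowest in naive, and that of F730043M19Rik was highest in PD-1hi and lowest in memory. As the rule takes the set with the highest mean, the further sets have the lower signal by construction.

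Seen over all genes, a placeholder symbol went with a lower share of varying genes, 4.02% of 2783 against 8.25% of the 19397 others. The median level was 5.78 for the 2783 genes, 6.81 for the others and 7.38 for the 112 members. With all genes divided into 4 equal groups by mean signal, 0.52%, 2.39%, 11.3% and 15.2% of Gm and Rik genes varied from the dimmest to the brightest group, against 0.80%, 2.58%, 15.1% and 12.8% of other genes. The brightest group held 164 Gm and Rik genes and the dimmest 1144. By class, 4.72% of 678 protein-coding, 3.63% of 1627 lncRNA and 3.86% of 285 pseudogene Gm and Rik genes were members. Of the lncRNA members 18 were highest in PD-1hi, 15 in PD-1int, 10 in memory and 16 in naive cells, and of the protein-coding members 11, 8, 7 and 6.

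**Figure D5:**
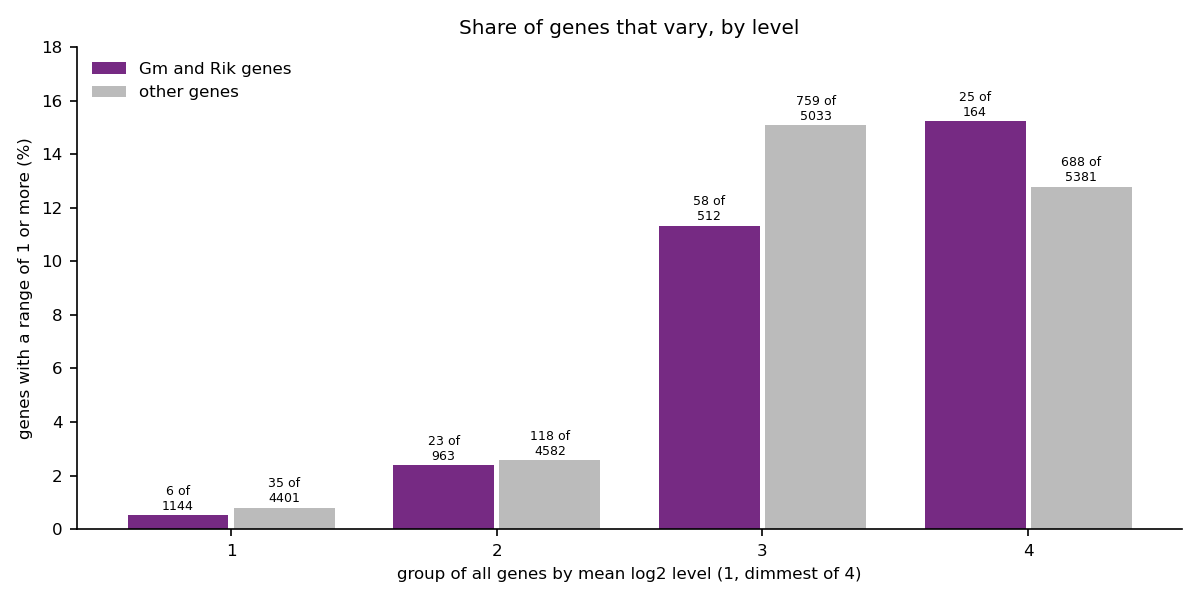
Share of genes (%) with a range of subset means of 1 or more, for Gm and Rik genes and for other genes, in 4 equal groups of all genes by mean log2 level over the 16 arrays (group 1 the dimmest). Numbers above the bars are varying genes of all genes in that group; the Gm and Rik bars stand at 0.52%, 2.39%, 11.3% and 15.2%.

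The threshold divides a continuous range. Just inside lay Gm3521 with a range of 1.02, Gm5069 with 1.00 and the lncRNA Gm19897 with 1.00, and just outside Gm3604 with 0.9995, Gm1966 with 0.994 and Gm10335 with 0.993. The median range of the 112 members was 1.44, and 30 had a range of 2 or more. The least separated of those just inside, Gm19897, read 7.91, 7.38, 7.59 and 7.43 in PD-1hi, 7.34, 7.91, 7.80 and 7.92 in PD-1int, 7.17, 7.60, 6.92 and 7.43 in memory, and 6.72, 6.50, 6.34 and 7.39 in naive cells. All 4 subsets overlapped with at least one other in this gene, since naive replicate 4 reached the effector arrays. The pseudogene Gm4963, also near the threshold, averaged 9.31 in PD-1hi, 9.22 in PD-1int, 10.24 in memory and 9.98 in naive cells and was nearest in course to the ribosomal protein gene Rpl9.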

How the data were processed

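Per the labels' protocols, RNA from sorted cells was isolated with an RNeasy Micro kit, labelled with a WT Pico kit and hybridised to the arrays. The log2 expression values per probe set were deposited by the authors, who used Affymetrix Power Tools per the submitters' processing notes; its version, the summarisation and the build are not given in the sources used, and the log base was read from the value range. The number of arrays limits the precision.

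Of 41345 probe sets, 23521 have 1 gene symbol in the platform annotation, 1814 several and 16010 none; only the first kind was used, and the set with the highest mean stood for each of 1082 genes with several. Dim genes were kept. The limma package (3.58.1, R 4.3.3) fitted 1 mean per subset to all 16 arrays together without a block and moderated the variances with eBayes; calls in each of 6 comparisons took a threshold of 0.05 on p adjusted by Benjamini and Hochberg across the 22180 genes, and the fit was tested on simulated data. The alternatives tried were quantile normalization, median centring, the mean of all probe sets, subset medians, a filter on the 40% dimmest genes, other thresholds, a replicate block, the 8 arrays compared alone, trended robust eBayes and each array left out.

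Named members were the 15 with the largest range, the 3 widest of each pair of highest and lowest subset, 3 on each side of the threshold, the 10 widest protein-coding members, the 5 widest with further probe sets, the 3 with the largest within-subset SD, and the 5 widest with a varying neighbour that is neither Gm nor Rik; each was given the 3 genes with the smallest root mean square difference of centred log2 values, Gm and Rik genes left out. Members, lists and motifs were chosen with earlier results of these data known. RefSeq tables of GRCm38.p6 gave gene classes, neighbours and promoter sequences.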

Additional observations from a re-analysis of the deposited data

Results flagged for a closer look

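Within single subsets, 8 of the 160 groups of 4 arrays examined in 40 named members held 1 array far from the other 3 by Dixon's criterion, and chance alone gives about 1 in 20. Gm6637 read 10.521 in PD-1hi replicate 2 against 11.160 to 11.185 in the other 3, and 9.281 in PD-1int replicate 1 against 10.229 to 10.404. 1700025G04Rik read 8.486 in naive replicate 4 against 7.972 to 8.035, and Gm11110 read 7.490 in naive replicate 4 against 6.568 to 6.720. Gm12474 read 9.899 in naive replicate 1 against 9.682 to 9.713. In memory cells, A630023P12Rik read 8.260 in replicate 2 against 7.958 to 7.997, F730043M19Rik 7.190 in replicate 3 against 6.556 to 6.609, and Gm10584 7.376 in replicate 4 against 6.563 to 6.701.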

How the results depend on the processing

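The number of Gm and Rik genes that vary was 112, and 173 with a threshold of 0.8 and 50 with 1.5. It was 117 after quantile normalization, 112 after median centring, 109 with the mean of all probe sets, 115 with subset medians, and 91 without the 40% dimmest genes, which drops 21 members by construction. With 1 array left out it lay between 111 and 119. Between PD-1hi and PD-1int the members called higher in PD-1hi numbered 9 to 16 with an array left out (14 with all arrays, 9 without PD-1hi replicate 4), and those called lower 6 to 13 (12 with all arrays, 6 without PD-1int replicate 4); the cause was not tested. The PD-1hi minus naive difference of 5730507C01Rik, at -0.065 with all arrays, ranged from -0.206 to 0.031 with 1 array left out and changed sign at 0.001 without PD-1hi replicate 1 and 0.031 without naive replicate 2. With the replicate number as a block, the members called were 102 between PD-1hi and naive, 98 between PD-1int and naive, 64 between memory and naive (59 without the block), 31 between PD-1hi and PD-1int (26 without it), 91 between PD-1hi and memory and 80 between PD-1int and memory. The sample titles repeat the tags AT1 to AT4, which go with the replicate numbers, in all 4 subsets. The labels do not say whether these tags mark mice, so pairing is possible but unknown and was not assumed. Deviations of same-numbered arrays correlated at -0.048 to 0.151 over 24 pairs, with a median of 0.035 and 2 over 0.1. Those of different-numbered arrays correlated at -0.168 to 0.200 over 72 pairs, with a median of -0.010 and 1 over 0.1. By these correlations 9 of 16 arrays were closest to their own number, which is at most a hint from the data and not from the design. The files carry no signal over background, so how far dim members are compressed is unknown.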
